A study of Mus musculus with 10 samples.

Results

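The genes described here are the Notch receptors *Notch1*, *Notch2*, *Notch3* and *Notch4*, the ligands *Jag1*, *Jag2* and *Dll4*, and the Hey targets *Hey1*, *Hey2* and *Heyl*. They were chosen by gene name, and all 10 were found among the 23195 genes of the table. The data are polyA RNA-seq of the hearts of male mouse embryos at embryonic day 13.5, of which 5 were wild type and 5 were *Nos1ap* null. The comparison of the genotypes asks what constitutive loss of *Nos1ap* does to the transcriptome of the embryonic heart. All embryos were of the C57BL6/J strain. The null embryos are homozygous for the tm1d allele, which lacks exon 4 in every tissue after excision by CMV-Cre, so that any change in the heart could also arise from loss of the gene elsewhere in the embryo. The labels do not say which embryos shared a litter.

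Notch receptors are single-pass membrane proteins that are activated by Jagged and Delta-like ligands on the neighbouring cell. Ligand binding allows ADAM metalloproteases and then γ-secretase to cut the receptor, and the released intracellular domain enters the nucleus and binds the transcription factor RBPJ. The Hey genes are direct targets of this complex and encode basic helix-loop-helix repressors. In the embryonic heart, Notch1 in the endocardium, with Dll4 and Jag1 as ligands, is known for its role in trabeculation and in the formation of the valve cushions, and Notch3 and Heyl are known from vascular smooth muscle cells and pericytes.

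The RBPJ complex binds the core sequence GTGGGAA, and HEY proteins bind E-boxes such as CACGTG. Both were searched on both strands in the promoters that RefSeq gives for build GRCm38.p6, each 250 bases before and 50 bases after the start of transcription. A promoter was matched for 8 of the 10 members, without *Hey1* and *Heyl*. The RBPJ core was found in 1 of these 8, that of *Hey2*, which holds 2 copies. Over all 32851 promoters, 6.38% held at least 1 copy and 0.256% held 2 or more. The E-box was found in 0 of the 8 and in 7.15% of all promoters. These 2 matches, the only ones in the 8 promoters, are given 5′ to 3′ on the strand of the gene (minus). The core or its reverse complement is in capitals. A match is a description of the sequence and was not tested for binding.
*Hey2*, chr10:30842973-30843001, core on the opposite strand at positions -207 to -201 from the start: gcgcggtggcaTTCCCACgcctctgccaa
*Hey2*, chr10:30842770-30842798, core on the strand of the gene at positions -4 to 3: tgggctgcagcGTGGGAAagaacctccag

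The genes lie apart in the genome. In the GENCODE M21 annotation of GRCm38, chromosome 2 holds *Notch1* (chr2:26457903-26516663), *Dll4* (chr2:119325784-119335962) and *Jag1* (chr2:137081456-137116644). *Hey1* (chr3:8663359-8667256) and *Notch2* (chr3:98013527-98150361) lie on chromosome 3, and *Notch3* (chr17:32120820-32166852) and *Notch4* (chr17:34564268-34588503) on chromosome 17. *Heyl* is at chr4:123233556-123249875, *Hey2* at chr10:30832359-30842801 and *Jag2* at chr12:112907819-112929776. The receptors are encoded by 30 to 34 exons in their longest coding transcript, and each Hey gene by 5.

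The values are normalized counts, that is, the read pairs of a gene scaled by the size factor of its library. The table gives their mean over each genotype, and the counts of single libraries were worked out from the digits of these means, as described under the processing. This settled the counts of 6 members. *Notch2* was settled in wild type, and in *Nos1ap* null only under a looser limit (at most 0.05 instead of 0.01 other sets of counts expected by chance). For *Notch1*, *Notch3* and *Hey2*, with means over 1000 in both genotypes, library values are not known. Only the authors' means were used for them, and the authors' own tests of these genes were not used. Library 1 of a genotype has its largest size factor and library 5 its smallest, and the replicate numbers in the labels cannot be tied to them.

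The targeted gene separated the genotypes. *Nos1ap* had 147, 133, 126, 161 and 153 normalized counts in the wild-type libraries 1 to 5 and 42.3, 42.2, 44.4, 31.1 and 39.2 in the null libraries. The depth on genes was estimated at 11328000 to 14023000 read pairs a library. Cardiomyocyte markers were abundant, the lowest of the 12 being *Nkx2-5* with a mean of 1668 normalized counts. All 16 endothelial and endocardial markers were present, the lowest being *Sox17* with 71.2. In 2 libraries, other cell types stood out. The sum of 7 settled neuronal and glial markers was 782 in wild-type library 3 and 156 to 212 in the other 9 libraries. Over all 11 listed, the lowest being *Th* with a mean of 3.75, the sums of the group means were 1221 in wild type and 326 in *Nos1ap* null. *Klf1*, an erythroid transcription factor and the only settled gene of 7 erythroid markers, had 92.5 normalized counts in null library 2 and 10.4 to 30.1 in the others. Over all 7, the sums of the group means were 133700 in wild type and 201300 in *Nos1ap* null, without known library values for the rest. Values without these libraries are given below.

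Levels of different genes can be compared only per length. Per kilobase of exon, *Hey2* had the highest level in wild type, with a mean of 293 normalized counts per kilobase, which is 2.16 times that of the next gene. *Notch3* (135), *Notch1* (129.9) and *Jag1* (113 ± 6.10, SD, n = 5) followed. *Hey1* (93.6 ± 9.19) and *Notch2* (91.7 ± 6.78) overlapped in their libraries, as did *Heyl* (66.5 ± 4.68), *Notch4* (66.3 ± 3.20) and *Dll4* (63.4 ± 4.47). *Jag2* was the lowest, with 34.3 ± 1.10 normalized counts per kilobase, and its libraries did not overlap with those of *Dll4*. *Jag1* was above *Hey1*, and *Notch2* above *Heyl*, without overlap in wild type, but the libraries overlapped in *Nos1ap* null. In *Nos1ap* null the order differed only between *Notch1* (131) and *Notch3* (124).

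Within the receptors, *Notch1* made up 30.7% of the summed level per kilobase in wild type, *Notch3* 32.0%, *Notch2* 21.7% and *Notch4* 15.7%. *Jag1* held 53.6% of that of the ligands, *Dll4* 30.1% and *Jag2* 16.3%. *Hey2* held 64.6% of that of the Hey genes. In *Nos1ap* null the corresponding shares were 65.7% for *Hey2*, 53.3% for *Jag1* and 32.0% for *Notch1*. The exon length used decides part of the order: with the longest coding transcript in place of all exons, *Notch1* came before *Notch3* in wild type (195 and 137) and *Hey1* before *Jag1* (126 and 117).

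**Figure D1:**
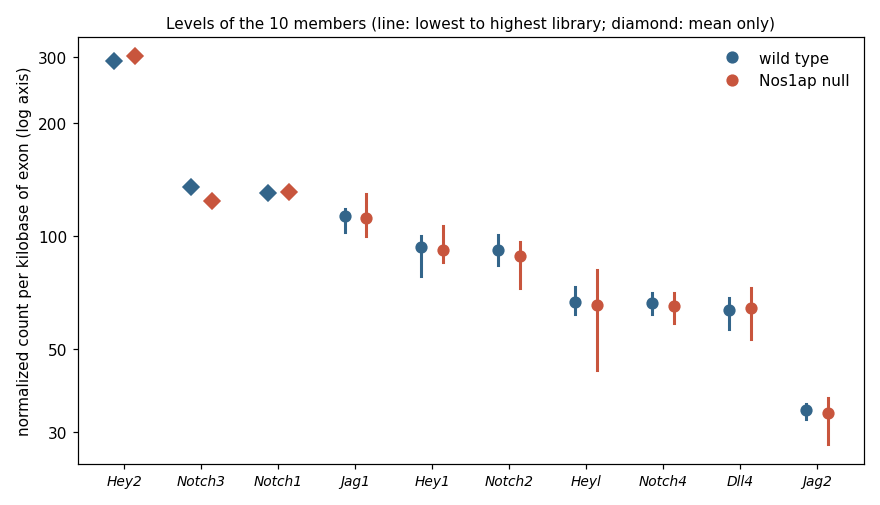
Mean normalized count per kilobase of exon (log axis) of the 10 members in wild type (blue) and *Nos1ap* null (red). Circles are genes with known library values, whose vertical line spans the lowest to the highest of 5 libraries, and diamonds are genes with a mean only. *Hey2* is the highest and *Jag2* the lowest in both genotypes.

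Among the receptors, *Notch1*, the main endocardial receptor, averaged 1849 normalized counts in the wild-type and 1858 in the null libraries. The difference of 9.12 is small against its error: of all sets of whole counts that give these means, none allows a standard error of the difference below 98.0. *Notch3*, the receptor of smooth muscle cells and pericytes, had means of 1095 and 1005. This log2 ratio of means of -0.12 is the farthest from 0 of the 10 members. The difference of -89.9 is 1.02 times the smallest standard error that the means allow, 88.0, so that it can be no more than 1.02 times its own error. The libraries of *Nos1ap* null must have spread by an SD of at least 175 normalized counts for *Notch3*, or 17.4% of the mean, against at least 91.0 in wild type. In bulk tissue, fewer cells of a type and less RNA per cell cannot be told apart. The sum of settled mural markers was 716 normalized counts in wild-type library 3 and 402 to 488 in the others. The library values of *Notch3* are not known, and the part of this library in its means was not tested.

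*Notch2* had 902, 963, 1087, 955 and 1038 normalized counts in the wild-type libraries 1 to 5. In the null libraries, under the looser limit, it had 948, 781, 1038, 1012 and 975. Null library 2 was below all other libraries, and the remaining ones overlapped. The means were 989 ± 73.1 and 951 ± 101 (SD, n = 5), and the difference had p = 0.532 by an exact two-sided permutation test. *Notch4*, the receptor restricted largely to endothelial cells, had 540.2, 543, 520.1, 501 and 569 in wild type and 529, 472, 513, 538 and 566 in *Nos1ap* null. The means were 535 ± 25.8 and 524 ± 34.9, with p = 0.587 by the same exact permutation test. Null library 2 was again the lowest of the 10.

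*Jag1*, the ligand at the highest level, had 675, 671, 659, 687 and 597 normalized counts in the wild-type libraries and 754, 598, 583, 712 and 611 in the null libraries. Null libraries 1 and 4 were above every wild-type library, and the other 3 lay at the lower end of the wild-type range or below it. The means, 658 ± 35.5 and 652 ± 76.5, differed by less than either SD (exact permutation p = 0.897). *Jag2* was the steadiest member in wild type, with 238, 241, 239, 248 and 227 normalized counts, an SD of 3.20% of the mean. Its null libraries had 258, 194, 249, 231 and 245. The means were 239 ± 7.64 and 235 ± 25.2 (exact permutation p = 0.865), and the value of null library 2 stood below the other 9.

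*Dll4*, the endothelial and endocardial Delta-like ligand, had 244, 263, 218, 255 and 241 normalized counts in the wild-type libraries, and in the null libraries 255, 204, 279, 252 and 246. Its highest and its lowest value were both in null libraries, 3 and 2. The means of 244 ± 17.2 and 247 ± 27.2 gave p = 0.865 by the exact permutation test.

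Of the targets, *Hey2*, which encodes the repressor of the compact ventricular myocardium and of arterial endothelium, averaged 1345 normalized counts in the wild-type and 1385 in the null libraries. The difference of 40.6 is 0.561 times the smallest standard error the means allow, 72.3. *Hey1*, known from atrial myocardium and endocardium, had 326, 327, 300.3, 319 and 256 normalized counts in the wild-type libraries, and in the null libraries 347, 285, 299, 289 and 279. Its means were 306 ± 30.0 and 299.6 ± 27.3 (exact permutation p = 0.754), and wild-type library 5 was its lowest library.

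*Heyl* varied more between null libraries than any other member with known library values. It had 357, 374, 318, 324 and 329 normalized counts in wild type, and 389.7, 224, 306, 415 and 337 in *Nos1ap* null. The means were nearly the same, 340.2 ± 23.9 and 334 ± 74.8 (exact permutation p = 0.889), but the SD was 7.03% of the mean in wild type and 22.4% in *Nos1ap* null. Without null library 2, which had the lowest value, the SD in *Nos1ap* null was 13.6% of a mean of 362.

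**Figure D2:**
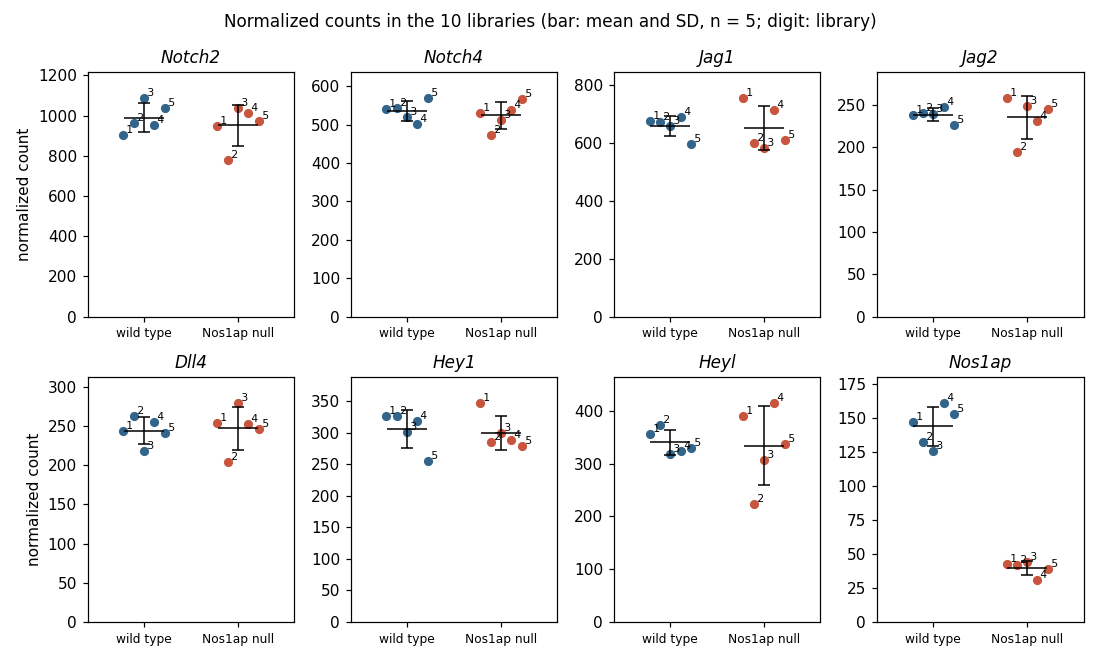
Normalized counts (vertical axes, from 0) of 7 members and of *Nos1ap* in the 5 wild-type (blue) and 5 *Nos1ap* null libraries (red), with the mean and SD (n = 5) in black and the library number beside each point. The genotypes overlap for each of the 7 members and not for *Nos1ap*, and null library 2 is the lowest point for *Notch2*, *Notch4*, *Jag2*, *Dll4* and *Heyl*.

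Across genes, log2 values of the normalized count plus 1 were tested with limma over the 10290 protein-coding genes with settled counts and a mean of at least 10. At the thresholds of the study (FDR 1% and absolute log2 fold change over 1), 3 of these genes were called (0.0292%), namely *Nos1ap*, *Gm7694* and *Mt2*. Of the 6 members tested, 0 were called, 0 had an unadjusted p under 0.05, against 3.56% of all genes tested, and in 0 did the libraries of the genotypes not overlap, against 0.787%. By the voom form of limma, 0 of the 6 had an unadjusted p under 0.05 too. The estimates were lower in *Nos1ap* null for 5 members and higher for 1. Their median log2 fold change was -0.026, against -0.0045 over all genes tested. By the group means of all 10, 7 were lower and 3 higher.

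The intervals show what size of change the data leave for each gene. For *Notch4* the log2 fold change was -0.031 ± 0.054 (SE), with a 95% interval from 0.905 to 1.06 times the wild-type level. The interval ran from 0.895 to 1.09 times for *Jag1*, from 0.882 to 1.09 for *Jag2* and from 0.901 to 1.13 for *Dll4*. It was 0.880 to 1.09 times for *Hey1* and, with the wider spread in the null libraries, 0.766 to 1.21 times for *Heyl*. The adjusted p was 0.998 for each of the 6 (limma, Benjamini-Hochberg over all genes tested). For comparison, the interval of *Nos1ap* was 0.236 to 0.334 times.

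Null library 2 had the lowest value of the 10 libraries in 4 of the 6 members with settled counts, and in *Notch2* under the looser limit. Of all genes tested, 14.5% had their lowest value in this library. *Heyl* was at 61.8% of the median of the other 4 null libraries, *Jag2* at 78.6%, *Notch2* at 78.7%, *Dll4* at 80.5% and *Notch4* at 88.4%. *Jag1* (90.4%) and *Hey1* (96.7%) were each the third lowest of the 10. *Nrarp*, a direct target that feeds back on the Notch complex, had 264 normalized counts in this library and 329.8 to 394 in the others. *Hes1*, another target, had 341 there and 288 to 350.1 in the others, above the median of the other null libraries. *Rbpj*, the gene of the transcription factor that the receptors bind, had 910 there, the lowest of the 10. This was 92.5% of the median of the other null libraries. *Nrarp*, *Hes1* and *Rbpj* are shown here after their values were seen.

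Some cell type markers stood apart in this library and others did not. The sum of 8 settled endothelial and endocardial markers of the 16 listed was 3731 normalized counts in null library 2, the lowest of all, 3883 to 4124 in wild type and 4010 to 4171 in the other null libraries. The sum of 4 venous and lymphatic markers of 7 (*Aplnr*, *Lyve1*, *Flt4* and *Pdpn*) was 1079 there, against 1281 to 1347 in the other null libraries. The mural sum (*Myh11*, *Mylk* and *Kcnj8*, 3 settled of 10) was 478 there, within the range of the other null libraries, 437 to 488. The arterial sum (*Gja4* and *Cxcr4*, 2 settled of 6) was 374 there, also within the range of the other null libraries, 353 to 409. Its 2 genes went opposite ways. *Cxcr4* had 40.2 there, the lowest of the 10, and 77.3 to 84.7 in the other null libraries, with 40.9 in wild-type library 1. *Gja4*, the rest of the sum, was above the other null libraries. The sum of 7 settled neuronal and glial markers was the lowest of the 10, at 86.7% of the median of the other null libraries. *Klf1* was at its highest there, 511% of the median of the other null libraries. The part of these cell types in the low values of the members was not tested. Without null library 2, the log2 fold change of *Heyl* was 0.081, that of *Jag2* 0.042, that of *Jag1* 0.0094 and that of *Notch4* 0.0061, each with the opposite sign to the value over 10 libraries, and adjusted p-values stayed at or above 0.886 (limma, over all members and alternatives).

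The spread between libraries was wider in *Nos1ap* null than in wild type for 6 of the 7 members with library values, *Hey1* being the exception. Of all genes tested, 47.2% were wider in *Nos1ap* null. Without null library 2 this held for 4 of the 7 members, and for 37.5% of all genes tested. The 4 were *Jag1*, *Jag2*, *Heyl* and, by a small margin, *Hey1* (SD of 9.82% of the mean in wild type and 9.87% in *Nos1ap* null). In *Jag1* the wider spread did not rest on this library, with an SD of 5.40% of the mean in wild type, 11.7% in *Nos1ap* null and 12.2% without it.

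**Figure D3:**
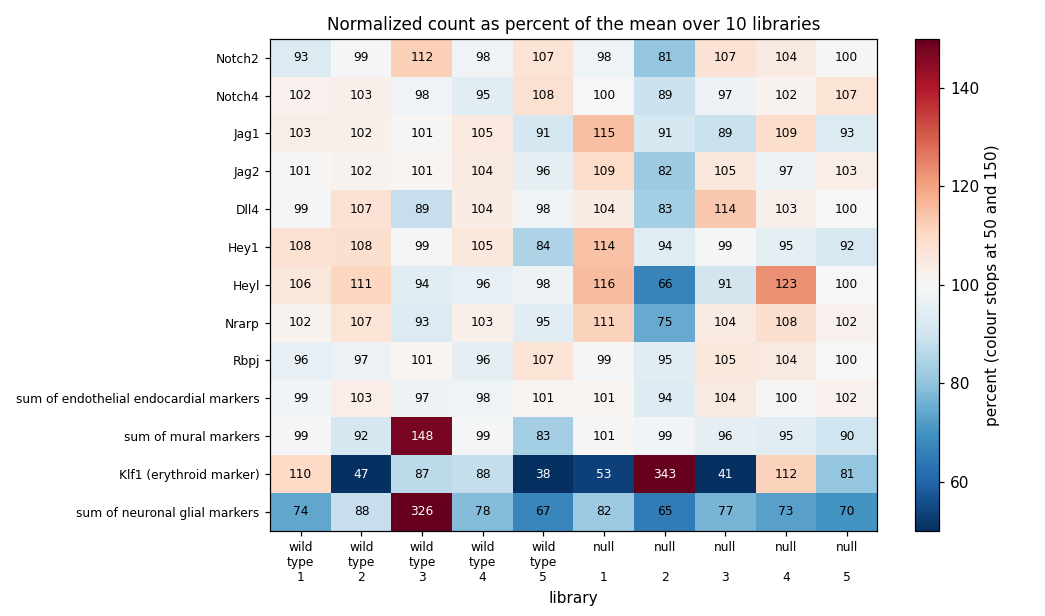
Each cell gives the normalized count of a gene, or of the summed settled markers of a cell type, in 1 library as a percent of its mean over the 10 libraries. Null library 2 is low for most members, with *Heyl* at 66%, and high for the erythroid marker *Klf1* (343%), and wild-type library 3 is high for neuronal and glial (326%) and mural markers (148%).

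The rest of the pathway was covered by 80 listed genes, 77 of them in the table and 47 tested. Of these 47, 0 were called and 2 (4.26%) had an unadjusted p under 0.05, near the 3.56% of all genes tested. The estimates were higher in *Nos1ap* null for 20 and lower for 27, with a median log2 fold change of -0.0084. No member of the groups that modify or process the receptors had an unadjusted p under 0.05: 0 of 5 for glycosylation (*Lfng*, *Mfng*, *Rfng*, *Pofut1* and *Poglut1*), 0 of 5 for cleavage, which include the metalloprotease gene *Adam17*, and 0 of 9 for inhibition and turnover. The count was also 0 of 4 for ligand endocytosis, 0 of 4 for other ligands, 0 of 3 for other targets and 0 of 9 for the nuclear complex. *Rbpj*, the DNA-binding subunit, named after its values were seen, had 954 ± 45.4 normalized counts in the wild-type and 968 ± 40.9 in the null libraries (exact permutation p = 0.603).

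The 2 genes with an unadjusted p under 0.05 belong to the genes known to act downstream of Notch in the heart, of which 8 were tested. *Erbb4*, the myocardial receptor for neuregulin, had 360.2, 413, 331, 409 and 392 normalized counts in the wild-type libraries, and in the null libraries 432, 405, 429, 461 and 415. Its log2 fold change was 0.17 ± 0.063 (SE), with p = 0.0317 by the exact permutation test and an adjusted p of 0.998 by limma. *Fgf2*, a growth factor, had 104, 96.8, 125, 127 and 126 in wild type and 129.6, 124, 160.3, 133 and 129 in *Nos1ap* null. Its log2 fold change was 0.22 ± 0.10, with p = 0.0397 by the exact permutation test and an adjusted p of 0.998 by limma. For both genes the libraries overlapped between the genotypes, and the difference did not pass the correction. The exact tests used the same libraries by which the 2 genes were picked, so that they add no independent support.

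The lowest estimates were those of *Dtx1*, an E3 ubiquitin ligase that modulates Notch, and *Dner*, a Notch-binding transmembrane protein of neurons. *Dtx1* had 13.9, 6.78, 28.5, 15.5 and 15.5 normalized counts in the wild-type libraries, and in the null libraries 12.6, 11.1, 7.06, 8.59 and 8.71. *Dner* had 22.6, 31.9, 77.4, 26.8 and 12.4 in wild type and 17.1, 26.1, 25.2, 16.1 and 31.6 in *Nos1ap* null. Both were highest in wild-type library 3, the library high in neuronal and glial markers. Their log2 fold changes over 10 libraries were -0.58 ± 0.32 and -0.33 ± 0.39 (adjusted p = 0.998 by limma). Without this library, the wild-type mean of *Dner* was 23.5 ± 8.29 (n = 4) against 23.2 in *Nos1ap* null, and that of *Dtx1* was 12.9 ± 4.17 against 9.60 (exact permutation p = 0.976 and 0.167). This exclusion was chosen after seeing the data. Both genes were highest in the library left out, so that smaller differences were fixed in advance. The part of neuronal and glial cells in these estimates was not tested.

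Of the 30 pathway genes that were not tested, 5 had a mean under 10 and 25 had counts that could not be settled. By the group means of these 25, 15 were higher and 10 lower in *Nos1ap* null, with log2 ratios from -0.17 (*Dlk1*) to 0.10 (*Tbx20*).

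**Figure D4:**
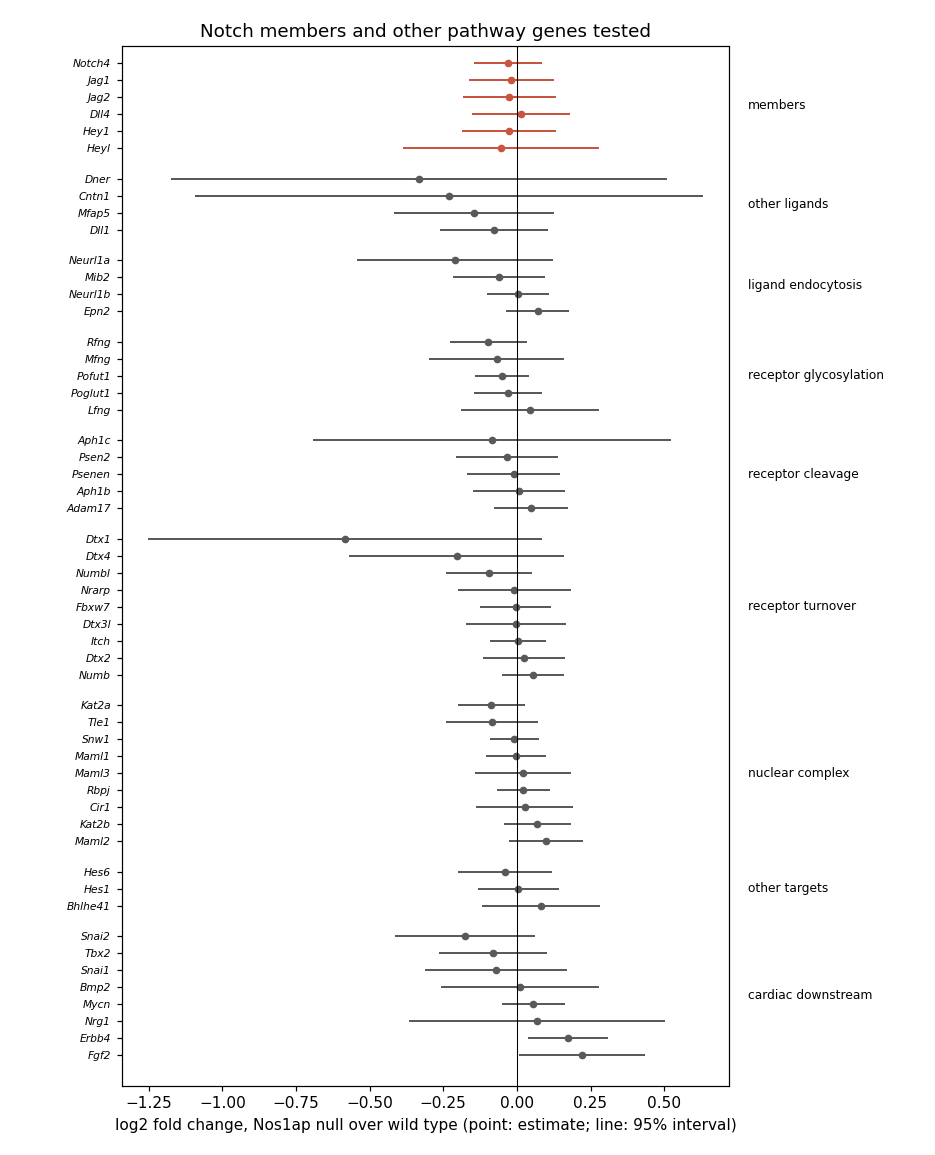
Log2 fold change of *Nos1ap* null over wild type (horizontal axis) for the 6 members tested (red) and 47 other pathway genes (grey) in groups named at the right. Points are limma estimates, and lines are 95% intervals, which include 0 for all members and for all other genes except *Erbb4* and *Fgf2*.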

How the data were processed

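PolyA libraries of E13.5 hearts of male embryos, 5 wild type and 5 *Nos1ap* null, were grouped by the genotype in their labels. Per the labels and the methods of the study, reads were trimmed (Trimmomatic 0.36), mapped by STAR within RSEM 1.2.31 to GENCODE M10 transcripts of GRCm38 and counted by strand, and gene counts were compared by DESeq 1.24.0. The deposited signal values are counts that the authors divided by a size factor per library and averaged over a genotype. The table also holds the authors' fold changes, p-values and adjusted p-values, which were not used.

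Whole counts that give a mean to 15 significant digits were searched in a reduced lattice. For means under 1000, the set closest to equal levels was accepted if no more than 0.01 others were expected that close by chance, which settled 98.8% of genes in wild type and 99% in *Nos1ap* null. The search was tested on simulated data with the same spread between libraries set for every gene, so that wider spreads were not covered. Genes whose counts differ widely between libraries are more often missed. Genes without settled counts were not tested here, and the authors' tests of them are not given. The limma test (version 3.58.1, R 4.3.3) covered protein-coding genes with a mean of at least 10 (log2 of the normalized count plus 1, trended and robust moderation, Benjamini-Hochberg adjustment), also tested on simulated data. For single genes, an exact two-sided permutation test enumerated 252 arrangements, of which 0.00794 is the smallest p possible. Replicates are labelled as separate samples. The labels do not name animals, so that p-values measure the spread between these samples. The members and lists were chosen with earlier results of these data known, and some listed genes are not reported here. Text names all members, *Nos1ap*, the pathway genes with the 2 largest and 2 smallest log2 fold changes or an unadjusted p under 0.05, and marker genes behind sums. Other pathway genes in the text (*Nrarp*, *Hes1*, *Rbpj*, *Adam17*, *Dlk1*, *Tbx20* and the glycosylation genes) were chosen after their values were seen. Gene lengths and positions are from GENCODE M21. Alternatives changed the thresholds, pseudocount, filters, scaling, moderation, gene length and libraries. Means over 1000 could not be resolved, which limits *Notch1*, *Notch3* and *Hey2* to bounds on their error.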

Additional observations from a re-analysis of the deposited data

Results flagged for a closer look

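In groups of 5 libraries, a value was singled out where its gap to the nearest other library exceeded 0.71 of the range of the group (Dixon's 95% value), which chance gives in about 1 of 20 groups. Of 34 groups tested, those of the 7 members with library values and of 10 marker lists, 5 were singled out, and 0 of the 5 were values of a member. The sum of settled neuronal and glial markers in wild-type library 3 was 782 normalized counts, with a gap of 0.918 of the range. The sum of settled mural markers in the same library was 716 (gap 0.749), and that of lung epithelium markers (*Epcam*, *Cdh1* and *Foxa2*) was 38.7 (gap 0.904). The sum of settled venous and lymphatic markers in null library 2 was 1079 (gap 0.755), and the erythroid marker *Klf1* had 92.5 normalized counts in that library (gap 0.767). In wild-type library 3, *Dll4* and *Heyl* were the lowest and *Notch2* the highest of the wild-type libraries, and a part of these cell types in those values was not tested.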

How the results depend on the processing

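The number of members called stayed at 0, that of other pathway genes at 0 and that of all genes tested at 2 to 3 under every alternative run. The fold changes of the members are small against their errors, and their signs depend on the libraries. With each library left out in turn, the log2 fold change ranged from -0.060 to 0.0061 for *Notch4*, from -0.074 to 0.019 for *Jag1*, from -0.060 to 0.042 for *Jag2*, from -0.032 to 0.080 for *Dll4*, from -0.090 to -0.00096 for *Hey1* and from -0.14 to 0.081 for *Heyl*. The difference of mean normalized counts (null minus wild type) ranged from -21.6 to 2.10 for *Notch4*, from -31.7 to 11.1 for *Jag1*, from -8.81 to 7.25 for *Jag2*, from -4.97 to 13.8 for *Dll4*, from -18.5 to -0.591 for *Hey1* and from -25.9 to 21.6 for *Heyl*. Null library 2 gave the highest value when left out for *Notch4*, *Jag2*, *Dll4* and *Heyl*. Without wild-type library 3 alone, the sign changed only for *Dll4* (log2 fold change -0.027, difference -3.6). Without both wild-type library 3 and null library 2, an alternative chosen after seeing the data, the sign changed for *Jag1* (log2 fold change 0.010, difference 7.45), *Jag2* (0.044 and 7.41) and *Heyl* (0.057 and 16.0). The fewer libraries are the only change made in these fits, and the cause was not tested. Other thresholds, pseudocounts, filters, the scaling and the moderation changed no sign. The looser limit that adds *Notch2*, also chosen after seeing the data, gave a log2 fold change of -0.061 ± 0.072 (SE). The length of the longest coding transcript moved the level per kilobase of *Notch4*, *Jag2*, *Hey1* and *Heyl* by more than 1 SD between libraries, and those of *Notch1* (129.9 to 195) and *Hey2* (293 to 527), whose SD is not known, were also higher with it. No paired analysis was possible because the group means carry no replicate numbers, and library numbers here follow the size factors.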
